A study of Mus musculus with 6 samples.

Results

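The genes described here are the tRNA genes of mouse chromosome 11 that carry no intron. They were taken from the deposited list of 433 tRNA loci as those with an mm9 position on chromosome 11 and no intron mark in their annotation, which gave 48 genes of the 50 tRNA loci on that chromosome. The other 2 chromosome 11 loci carry an intron and serve for comparison, as do the 361 intronless loci of the other chromosomes. The RNA was total RNA of eWAT, the white fat that lies along the epididymis. The 6 libraries came from 3 Maf1 KO mice, whose Maf1 gene is lost from the whole body, and 3 wild-type (WT) mice. All mice were C57BL/6 males (C57Bl/6J in the study's methods) of 22 to 24 weeks on breeder chow and had been fasted overnight. Libraries are named KO1 to KO3 and WT1 to WT3 by genotype and replicate number, and values of 3 libraries are given in the order of these numbers. The comparison asks whether the transcripts of these genes differ between mice without and with MAF1.

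A tRNA carries an amino acid to the ribosome and reads the codon with its anticodon. RNA polymerase III makes it from a short gene whose promoter, the A box and the B box, lies inside the transcribed sequence, and the polymerase stops at a run of T after the gene. The precursor carries a 5' leader and a 3' trailer, which RNase P and RNase Z remove, and an intronless precursor needs no splicing. MAF1 represses RNA polymerase III and is known to act when nutrients are scarce.

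The deposited table gives each locus 2 scores per library, one from precursor-only tags and one from mature tags. A score rises with the number of sequenced tags and is scaled between libraries. A single whole tag was worth 0.763 in WT2, the deepest library, and 1.69 in KO2, the shallowest. The 48 genes were 71 to 82 bases long and scores were not divided by length. They covered 17 amino acids and 32 combinations of amino acid and anticodon, with 24 genes on each strand. Of the 48, 34 lay in 4 clusters in which neighbours were at most 200 kb apart, and 14 stood alone. By the GENCODE annotation of the same build, 41 lay between genes, 3 in an intron and 4 in an exon. The nearest protein-coding gene was a median of 1503 bases away. The B box core, searched as GTTCNANNC on the gene strand, was present in 46 of 48 genes (95.8%), against 89.4% of all 433 loci. A run of at least 4 T stood within 60 bases after the gene in 44 of 48 (91.7%), against 88.0% of all loci. The genes without the B box core were n-Ta1 and n-Ts23, and those without the T run were n-Tt5, n-Tk5, n-Tq12 and n-Ta3.

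The sequences below are those on which the results turn, read from mm9 on the strand of the gene. The first pair shows that n-Tg1, annotated as a glycine gene with anticodon ACC, is close to a valine gene. In these lines capitals mark the bases that differ or are absent in the other, between n-Tg1 (chr11:48637230-48637303, plus strand) and n-Tv7 (chr11:48670139-48670211, plus strand), which carries anticodon AAC.
n-Tg1 gene: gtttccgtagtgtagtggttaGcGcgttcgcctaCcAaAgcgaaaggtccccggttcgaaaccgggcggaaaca
n-Tv7 gene: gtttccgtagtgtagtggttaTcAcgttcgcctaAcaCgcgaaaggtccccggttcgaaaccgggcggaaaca
The identity was 93.2% in a global alignment, and the closest of the 28 other glycine loci reached 64.0%. Among the 48 genes, 2 were closer to a locus of another amino acid than to any of their own. The other was n-Ts23, a serine gene by annotation with 94.5% identity to the phenylalanine locus n-Tf7 and 58.3% to the nearest serine locus.

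The next lines give the other genes that passed the precursor test, with the anticodon in capitals, and then the 40 bases that follow each gene, with the first run of T in capitals. n-Tl6 reads leucine codons (chr11:48670476-48670557, minus strand), n-Tt5 threonine codons (chr11:68923967-68924040, plus strand) and n-Tr12 arginine codons (chr11:115274618-115274690, minus strand).
n-Tl6 gene: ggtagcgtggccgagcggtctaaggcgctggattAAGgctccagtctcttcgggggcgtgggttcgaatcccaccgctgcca
n-Tt5 gene: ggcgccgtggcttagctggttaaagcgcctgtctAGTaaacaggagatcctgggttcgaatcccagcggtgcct
n-Tr12 gene: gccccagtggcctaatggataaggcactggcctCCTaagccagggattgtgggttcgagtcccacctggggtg
n-Tg1 downstream: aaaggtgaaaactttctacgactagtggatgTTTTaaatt
n-Tl6 downstream: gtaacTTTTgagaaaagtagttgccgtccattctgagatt
n-Tt5 downstream: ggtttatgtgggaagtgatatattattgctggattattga
n-Tr12 downstream: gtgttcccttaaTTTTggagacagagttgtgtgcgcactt
The first T run began after 31 bases at n-Tg1, 5 at n-Tl6 and 12 at n-Tr12, and none stood within 60 bases of n-Tt5.

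The last set shows genes whose sequence is repeated on the chromosome, so that only the flanks tell the copies apart. Each gene is printed once with its anticodon in capitals, and the copies by what follows them.
n-Tt8 gene: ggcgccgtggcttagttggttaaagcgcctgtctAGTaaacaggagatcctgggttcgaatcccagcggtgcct
n-Tt8 downstream: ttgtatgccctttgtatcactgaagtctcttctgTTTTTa
n-Tt7 downstream: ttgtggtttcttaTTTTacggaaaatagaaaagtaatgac
n-Tw7 gene: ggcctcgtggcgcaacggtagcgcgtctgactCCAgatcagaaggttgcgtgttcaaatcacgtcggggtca
n-Tw7 downstream: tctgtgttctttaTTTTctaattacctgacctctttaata
n-Tw6 downstream: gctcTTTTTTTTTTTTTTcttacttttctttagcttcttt
n-Tc54 gene: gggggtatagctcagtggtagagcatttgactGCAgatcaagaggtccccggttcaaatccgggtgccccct
n-Tc54 downstream: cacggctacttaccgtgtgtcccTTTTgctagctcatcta
n-Tc55 downstream: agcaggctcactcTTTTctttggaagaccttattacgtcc
n-Tc56 downstream: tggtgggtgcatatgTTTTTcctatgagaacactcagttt
The threonine pair lay at chr11:68851355-68851428 (n-Tt8, plus strand) and chr11:68876246-68876319 (n-Tt7, minus strand). n-Tt5, the threonine gene above, differs from n-Tt8 by the single substitution C16T, counted from the 5' end of n-Tt5. The tryptophan pair lay at chr11:68855328-68855399 (n-Tw7, plus strand) and chr11:68876997-68877068 (n-Tw6, minus strand). The cysteine genes lay at chr11:97850237-97850308 (n-Tc54, minus strand), chr11:97849560-97849631 (n-Tc55, minus strand) and chr11:97658386-97658457 (n-Tc56, plus strand).

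Gene counts summed to between 7207476 (KO2) and 15971900 (WT2) per library, and Maf1 itself stood at 13.5, 11.2 and 22.4 CPM in the KO libraries, against 57.0, 67.3 and 67.4 CPM in the WT libraries. CPM are counts scaled to library size, for named genes with TMM factors and for marker sums without them. All 7 adipocyte markers were present in all 6 libraries, with summed levels of 12249 to 17481 CPM in KO and 17191 to 18870 CPM in WT. Summed markers of epididymis and testis were 717 to 6699 CPM in KO and 12.5 to 5501 CPM in WT, with 4 of 10 markers present in all libraries. In KO1 5 of the 10 were at 0 (Prm1, Lcn5, Lcn8, Lcn9 and Tnp1), and Crisp1 gave 716 CPM of its sum. In WT1 4 were at 0 (Prm1, Lcn8, Lcn9 and Tnp2), and in each other library at most 1. Summed smooth muscle markers were 1295 CPM in KO1, 3157 CPM in KO2 and 201 CPM in KO3, against 233 to 245 CPM in WT, with 4 of 4 present in all libraries. Seminal vesicle markers reached 24.0 CPM in KO1 and 4.30 CPM in KO2 and at most 0.0626 CPM in WT, where Svs2, Svs3a and Svs4 were at 0. The part of these cells in the results below was not tested, and in bulk tissue fewer cells of a type and less RNA per cell cannot be told apart. Mature scores over all 433 loci summed to 22111 in KO3 and 22656 in WT3, above the 4657 to 9613 of the other 4 libraries.

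Precursor scores of the intronless chromosome 11 genes were mostly higher without MAF1, but few genes passed the test. Summed over the 48 genes, they were 1026, 623 and 1679 in the KO libraries, against 264, 393 and 550 in the WT libraries, and the genotypes did not overlap. This rested on n-Tg1, which gave 147 of the KO2 sum and 65.95 of the WT3 sum. Without it KO2 lay below WT3, so that the genotypes overlapped. A mean score of at least 1 was reached by 37 genes. Of these 37, 33 had a positive log2 fold change (95.3% of the 276 loci tested had one), and the median was 1.15 against 1.57 over all loci. Fold changes are on the log2(score + 1) scale, which understates them at low scores. By limma with Benjamini-Hochberg adjustment over all 276 loci, 4 genes were higher in Maf1 KO at an adjusted p under 0.05 and 0 were lower, with 5 genes at an unadjusted p under 0.05, all of them higher. The called share was 10.8% of the 37, with 24.6% called higher over all loci. The genotypes did not overlap at 8 of the 37 genes, or 21.6%, with 39.5% over all loci. Residual correlations of same-numbered libraries met the rule for pairing in gene counts but not in scores, and some libraries of unlike number correlated as strongly. With the replicate number as a block, limma called 5 genes higher (13.5%, with 37.7% over all loci) and 0 lower. These were n-Tg1, n-Tl6, n-Tt5, n-Ta38 and n-Tr18, so that n-Tr12 was lost and the last named pair gained. For the intronless loci elsewhere the median was 1.58, and 56 of 217 passed. Intronless loci passed in 17 of 35 cases on chromosome 3, in 22 of 73 on chromosome 13 and in 7 of 30 on chromosome 1, the other chromosomes with 30 or more tested. These shares are descriptions, and the chromosomes were not compared by a test.

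**Figure D1:**
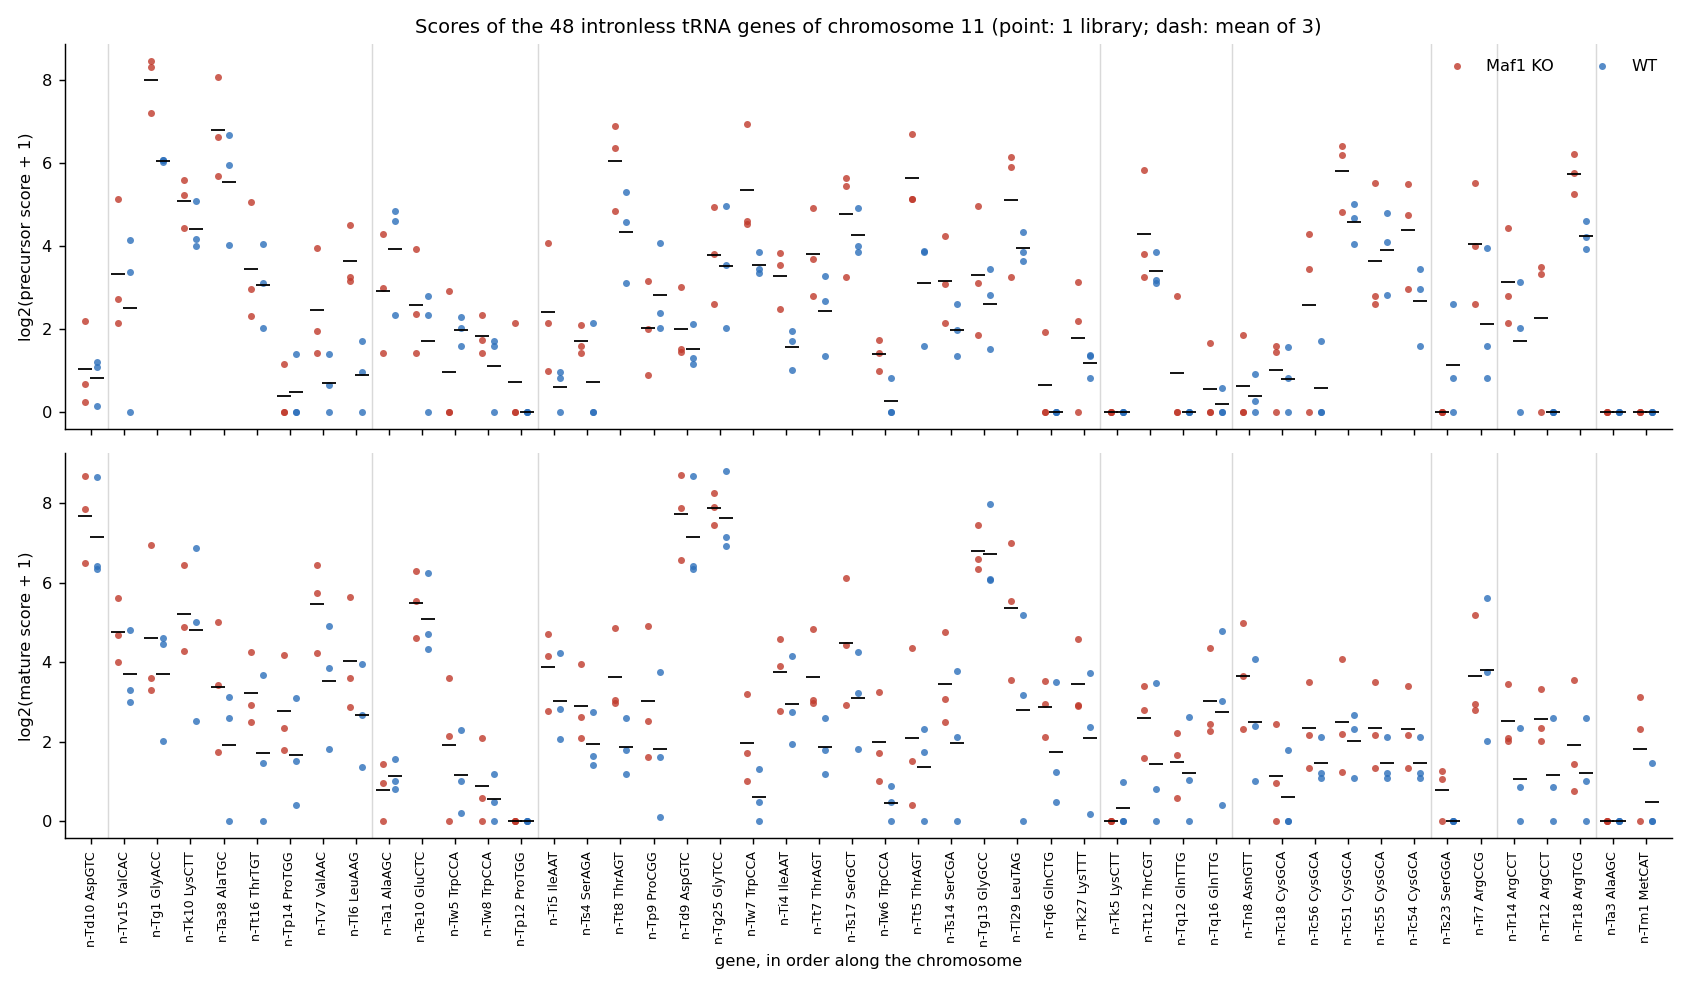
Precursor scores (top) and mature scores (bottom) of the 48 genes as log2(score + 1), in order along the chromosome, with Maf1 KO in red left of WT in blue. Each point is 1 library, the dash is the mean of 3, and vertical lines separate clusters from genes that stand alone; n-Tg1 has the highest mean precursor score (168 over the 6 libraries), and n-Td9, n-Td10 and n-Tg25 the highest mature scores.

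n-Tg1, the glycine-annotated gene with a valine-like sequence, had the highest mean precursor score of the 48. It stood at 318, 147 and 349 in the KO libraries, against 63.9, 66.4 and 65.95 in the WT libraries. The WT libraries lay close together and all KO libraries above them, at 271 ± 109 against 65.4 ± 1.31 (SD, n = 3 each), or 4.15 times. Its log2 fold change was 1.94 ± 0.70 (SE) with an adjusted p of 0.0311 by limma. It alone made up 31.0%, 23.6% and 20.8% of the summed precursor score of the 48 genes in the KO libraries, and 24.2%, 16.9% and 11.98% in the WT libraries.

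n-Tl6 (anticodon AAG), the last gene of the same cluster, had the largest log2 fold change of the 37 tested genes. Its precursor score was 7.96, 8.45 and 21.9 in the KO libraries, against 0, 2.28 and 0.960 in the WT libraries. All KO libraries were above all WT libraries, and the log2 fold change was 2.75 ± 0.97 (SE) with an adjusted p of 0.0252 by limma. n-Tt5 (anticodon AGT) is 505 bases from Per1, a core gene of the circadian clock. It stood at 33.8, 33.8 and 103 in the KO libraries, against 2.02, 13.7 and 13.5 in the WT libraries, again without overlap. Its log2 fold change was 2.54 ± 0.99 (SE), adjusted p = 0.0434 by limma.

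n-Tr12, an arginine gene with anticodon CCT, passed with less support. Its precursor score was 8.95 in KO1 and 10.2 in KO3 but was listed at 0 in KO2 and in all 3 WT libraries, so the genotypes share the value 0. The fitted log2 fold change of 2.27 ± 0.90 (SE), adjusted p = 0.0481 by limma, depends on the added 1 and is no bound, and its adjusted p was 0.0650 with the replicate block. The 4 calls rested on most libraries: none of the 48 genes passed when WT1, WT2, KO1 or KO3 was left out, 3 passed without WT3 and 6 without KO2. When KO2 was left out, 3 of the 4 were still called.

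The other genes without overlap among the 37 tested were n-Tv7 (valine), n-Ti5 and n-Ti4 (isoleucine), n-Tw7 (tryptophan) and n-Tr18 (arginine), and none of these passed without the block. n-Tw6, under the mean score of 1, did not overlap either. n-Tw7 was at 22.2, 122 and 23.3 in the KO libraries, against 9.13, 9.92 and 13.5 in the WT libraries. A single library, KO2, thus carried most of its difference, and its log2 fold change was 1.81 ± 0.98 (SE, adjusted p = 0.147). n-Tr18 was at 52.7, 37.2 and 73.6 in the KO libraries and at 14.2, 17.6 and 23.3 in the WT libraries, with a log2 fold change of 1.49 ± 0.94 (SE, adjusted p = 0.213), and it passed with the block. Standard errors of the 37 genes lay between 0.70 and 1.02, so that a change of the median size was close to its own error. They draw on the spread of all loci tested, which share the same libraries, and not on a single gene alone.

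The genes with the smallest precursor fold changes were n-Ta1 (alanine), n-Tw5 (tryptophan) and n-Tp9 (proline). n-Ta1 had precursor scores of 6.96, 1.69 and 18.6 in the KO libraries, against 4.05, 27.5 and 23.2 in the WT libraries, a log2 fold change of -1.02 ± 1.01 (SE, adjusted p = 0.428). This gene lacks the B box core and a T run before 44 bases, and lies on the same strand in an exon of Cdkn2aipnl, which was counted at 21.1 ± 4.66 CPM in KO and 21.4 ± 1.36 CPM in WT (SD, n = 3 each). Tags of the tRNA gene and of that exon cannot be told apart by position and strand. n-Tw5 was listed at 0, 0 and 6.51 in the KO libraries, against 2.02, 3.05 and 3.86 in the WT libraries, with a log2 fold change of -0.99 ± 0.92 (SE, adjusted p = 0.389). n-Tp9 was at 2.98, 0.840 and 7.91 in the KO libraries, against 3.04, 4.19 and 15.95 in the WT libraries, with a log2 fold change of -0.82 ± 0.98 (SE, adjusted p = 0.506). In all 3 the genotypes overlapped. The fourth negative value was that of n-Tc55 (-0.26 ± 1.01, SE).

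The 11 genes under the mean score of 1 were n-Tp14, n-Tp12, n-Tw6, n-Tq6, n-Tk5, n-Tq12, n-Tq16, n-Tn8, n-Ts23, n-Ta3 and n-Tm1. Their highest mean precursor score was 0.995. n-Tk5, n-Ta3 and n-Tm1 were listed at 0 precursor tags in all 6 libraries. n-Ta3 and n-Tp12 were also listed at 0 mature tags in all 6. All 3 glutamine genes (n-Tq6, n-Tq12 and n-Tq16) and the asparagine gene n-Tn8 fall in this group, although their mature scores passed the filter.

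Both intron-containing loci of the chromosome had precursor scores without overlap, and 1 of them passed in the fit without the block. n-Tl12, a leucine gene with anticodon CAA, was at 170, 143 and 451 precursor score in the KO libraries, against 39.3, 62.9 and 140 in the WT libraries. The log2 fold change was 1.64 ± 0.71 (SE, adjusted p = 0.0721, or 0.00236 with the replicate block). n-Tr25, an arginine gene with anticodon TCT, was at 50.1, 53.9 and 68.6 in the KO libraries, against 6.29, 5.89 and 17.2 in the WT libraries. n-Tr25 was the one that passed without the block, with a log2 fold change of 2.58 ± 0.97 (SE, adjusted p = 0.0380). n-Tr25 lies inside the largest cluster of intronless genes, between n-Tg13 and n-Tl29.

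Arranged by position, the cluster at 48.6 Mb held 8 genes within 38.5 kb (n-Tv15, n-Tg1, n-Tk10, n-Ta38, n-Tt16, n-Tp14, n-Tv7 and n-Tl6). Its summed precursor score was 436, 285 and 760 in the KO libraries, against 99.1, 164 and 235 in the WT libraries. After n-Tg1, the alanine gene n-Ta38 contributed most, with 50.8, 97.2 and 271 in the KO libraries and 15.2, 61.4 and 102 in the WT libraries. n-Ta38 and the lysine gene n-Tk10 lie in an intron of Trim7, on the opposite strand.

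The cluster at 68.9 Mb held 17 genes within 88.2 kb, among them the identical threonine, isoleucine and tryptophan pairs. It summed to 328, 236 and 499 in the KO libraries, against 87.8, 107 and 170 in the WT libraries. The cluster at 115.3 Mb held 3 arginine genes within 0.871 kb, and summed to 67.7, 40.6 and 104 in the KO libraries, against 14.2, 20.6 and 31.0 in the WT libraries. In each of these 3 clusters all KO sums were above all WT sums. Without its highest gene, n-Tg1, the sums of the 48.6 Mb cluster overlapped, and so did those at 115.3 Mb without n-Tr18. The sums at 68.9 Mb stayed apart without n-Tt8, the highest gene there, but not without n-Tw7. That gene gave 122 of the 236 in KO2 and 13.5 of the 170 in WT3, and without it KO2 lay below WT3. The cluster at 97.6 Mb, with 1 asparagine and 5 cysteine genes in 287 kb, summed to 116, 38.9 and 196 in the KO libraries, against 39.6, 53.6 and 51.6 in the WT libraries. Here KO2 was below every WT library. The 14 genes outside clusters also overlapped, with a median log2 fold change of 0.73 over the 7 tested, against 1.15 to 1.49 in the clusters.

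By amino acid, the summed precursor scores did not overlap between genotypes for arginine, glycine, isoleucine and tryptophan, 4 of the 17. Without the highest gene of each, n-Tg1, n-Tw7 and n-Tr18, the glycine, tryptophan and arginine sums overlapped. The other 2 glycine genes summed to 15.6, 12.7 and 59.9 in the KO libraries, against 4.91, 16.7 and 39.9 in the WT libraries. The 4 arginine genes summed to 112, 45.6 and 119 in the KO libraries, against 16.2, 21.4 and 45.5 in the WT libraries, so that KO2 and WT3 nearly met. The 2 isoleucine genes summed to 11.7, 7.94 and 28.9 in the KO libraries, against 1.01, 3.61 and 3.22 in the WT libraries. The 5 threonine genes averaged 3.34 times the WT sum, but KO2 (82.8) lay below WT3 (89.9). No amino acid had mature sums without overlap.

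The share of these 48 genes in the precursor score of all 433 loci was 13.1%, 10.9% and 10.2% in the KO libraries, against 14.7%, 16.4% and 13.1% in the WT libraries. KO1 and WT3 had nearly the same share. Without n-Tg1 the shares were 9.40%, 8.55% and 8.26% in the KO libraries and 11.5%, 14.0% and 11.7% in the WT libraries. In mature scores the share was 10.3%, 9.99% and 10.96% in the KO libraries, against 9.57%, 9.19% and 9.46% in the WT libraries. The KO shares did not overlap the WT shares in mature scores, nor in precursor scores once n-Tg1 was left out. These shares were not tested.

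Whether mature scores differed depended on the fit: 0 genes passed without the replicate block and 20 with it. Of the 43 genes with a mean mature score of at least 1, 41 had a positive log2 fold change (96.5% of all 312 loci tested were positive), with a median of 0.96 against 1.07 over all loci. This median was 0.40 without KO3, 0.46 without WT1, 1.498 without KO1 and 1.53 without WT3. By limma without the block, 0 of the 43 passed in either direction, with 0% called over all loci, and 1 of the 43 had an unadjusted p under 0.05. With the block, 20 of the 43 were higher (46.5%, with 49% over all loci) and 0 lower, at log2 fold changes of 1.07 to 2.58. The gene with the unadjusted p was n-Tl29, a leucine gene with anticodon TAG, whose mature score was 10.7, 45.9 and 127 in the KO libraries, against 0, 8 and 35.4 in the WT libraries. The genotypes overlapped, and its log2 fold change was 2.58 ± 1.16 (SE, adjusted p = 0.635) without the block and 2.58 ± 0.43 (SE, adjusted p = 1.39e-07) with it. For this spread limma pools all 312 loci, which share the same libraries, so the small p does not rest on the values of n-Tl29 alone. Genotypes did not overlap at 3 of the 43 genes, or 6.98%, with 13.1% over all loci. These were n-Tt8, n-Tt7 and n-Tw6, the first 2 of which share 1 sequence and nearly the same mature scores.

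The highest mean mature scores belonged to n-Td9 and n-Td10, identical aspartate genes with anticodon GTC, and to n-Tg25, a glycine gene with anticodon TCC. n-Td9 was at 234, 95.0 and 417 in the KO libraries, against 84.9, 80.6 and 413 in the WT libraries. n-Td10, far away on the chromosome, was at 233, 89.9 and 413 in the KO libraries, against 84.9, 80.2 and 408 in the WT libraries. Both followed the library more than the genotype, with high values in KO3 and WT3. n-Tg25 was at 174, 305 and 241 in the KO libraries, against 140, 120 and 452 in the WT libraries, and its highest library was a WT one. The log2 fold changes of mature scores were 0.57 ± 0.94, 0.54 ± 0.94 and 0.25 ± 0.91 (SE) for n-Td9, n-Td10 and n-Tg25. Precursor scores of these genes were low, with means of 3.55 in KO and 1.99 in WT for n-Td9, 1.43 in KO and 0.830 in WT for n-Td10, and 15.9 in KO and 14.6 in WT for n-Tg25. Their precursor log2 fold changes were 0.47 ± 0.93, 0.22 ± 0.89 and 0.28 ± 1.01 (SE), none of which passed. Aspartate and glycine genes together made up 56.4% to 77.4% of the mature score of the 48 genes in KO libraries and 68.2% to 85.2% in WT libraries. These shares add n-Td9 and n-Td10, whose scores may hold the same tags.

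The test of precursor change minus mature change within a locus asks whether the transcripts moved apart. The sequences of 28 of the 48 genes occur more than once among all tRNA loci, so their mature scores may hold tags of other copies. Of the 36 genes with both scores, 17 had a positive and 19 a negative difference, and the median was -0.05, against 0.47 over the 258 loci tested, of which 64.7% were positive. The median of the 36 turned positive when 1 library was left out, at 0.33 without WT1, 0.31 without KO2, 0.21 without WT2, 0.15 without KO3 and 0.02 without WT3, and was -0.14 without KO1. By limma, 0 of the 36 genes passed, with 1.94% called higher over all loci, and 2 of the 36 had an unadjusted p under 0.05. For n-Tg1 the difference was 1.03 ± 0.95 (SE, adjusted p = 0.707). Its mature score was 11.1, 8.82 and 122 in the KO libraries, against 3.04, 21.0 and 23.5 in the WT libraries. n-Tt5 had 1.79 ± 0.83 (SE, adjusted p = 0.311) and n-Tp9 had -2.02 ± 0.91 (SE, adjusted p = 0.284), the pair with an unadjusted p under 0.05. Across the 36 genes the precursor and mature log2 fold changes had a Spearman rho of 0.27, given as a description over loci that share the same 6 libraries.

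**Figure D2:**
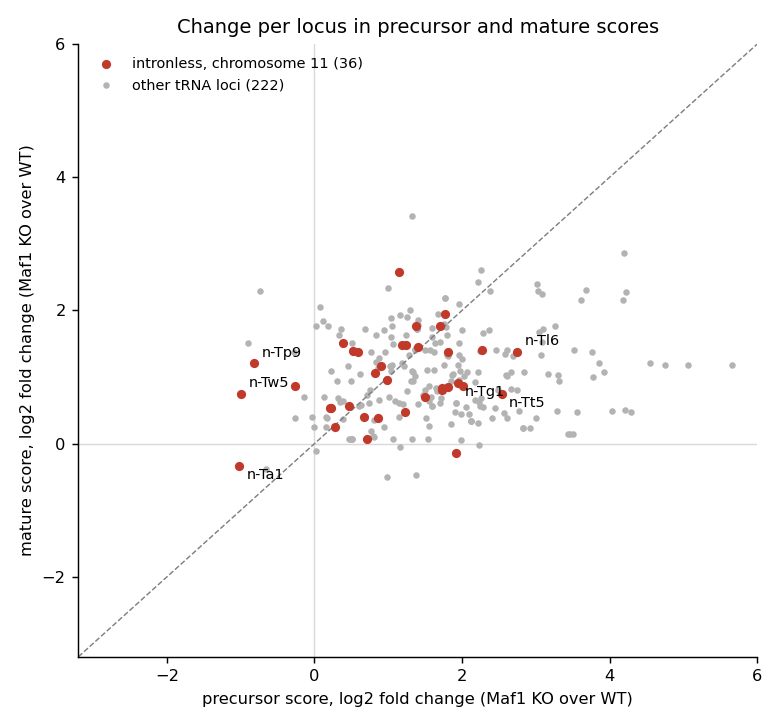
Log2 fold change of the precursor score (horizontal) against that of the mature score (vertical), Maf1 KO over WT, for 36 intronless chromosome 11 genes (red) and 222 other tRNA loci (grey) with both scores. The dashed line marks equal change, and 17 red points lie below it and 19 above. Named are n-Tl6, n-Tg1 and n-Tt5, which were called, and n-Ta1, n-Tw5 and n-Tp9, with the lowest precursor changes. The called gene n-Tr12 is not named.

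The balance of the scores varied widely between genes. The mean precursor score was above the mean mature score at 19 of the 48 genes. In single libraries the count was 27, 15 and 17 in the KO libraries, and 22, 24 and 15 in the WT libraries. At n-Tg1 the precursor score was 271 against a mature score of 47.2 in KO, and 65.4 against 15.8 in WT. At n-Td9 it was 3.55 against 249 in KO, and 1.99 against 193 in WT. The n-Td9 sequence has 13 copies among all tRNA loci and that of n-Tg1 has 1. The mature score of n-Td9 may thus hold tags of other copies, and its balance is not a like measure to that of n-Tg1. The number of copies of the gene sequence among all tRNA loci had a Spearman rho of 0.61 with the mean mature score and of -0.01 with the mean precursor score over the 48 genes. Over the 361 intronless loci elsewhere these values were 0.27 and 0.25. Mature tags of identical copies cannot be assigned to 1 of them, so a mature score may hold tags of every copy. Copies are thus not separate points, and the part of this in rho was not tested.

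Copies with 1 shared gene sequence gave nearly equal mature scores and unequal precursor scores. The mature means of such copies differed by at most 1.09 times, and mature tags of identical copies cannot be assigned to 1 of them, so that these are not separate measurements. The threonine gene n-Tt8 had a precursor score of 80.9, 27.9 and 119 in the KO libraries, against 7.61, 22.9 and 38.7 in the WT libraries. Its copy n-Tt7 had 11.9, 5.91 and 29.3 in the KO libraries, against 1.52, 5.34 and 8.70 in the WT libraries. n-Tt8 was the higher in 6 of 6 libraries, 4.73 times on average. Neither passed, with log2 fold changes of 1.71 ± 0.92 and 1.38 ± 1.01 (SE).

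The tryptophan copies differed most. n-Tw7 averaged 33.3 over the 6 libraries and n-Tw6 0.960, a ratio of 34.7, in the same order in 6 of 6 libraries. As printed above, n-Tw7 has 13 bases before a run of 4 T, and n-Tw6 has 4 bases before a run of 14 T. The cysteine copies n-Tc54, n-Tc55 and n-Tc56 were at 25.9, 5.97 and 9.95 in KO1, at 6.76, 5.07 and 0 in KO2 and at 43.8, 44.7 and 18.7 in KO3. In WT they were at 2.02, 6.08 and 0 (WT1), 9.92, 16.0 and 2.28 (WT2) and 6.76, 26.6 and 0 (WT3). n-Tc55 was thus the highest copy in each WT library, while n-Tc54 was the highest in KO1 and KO2. Their log2 fold changes were 1.73 ± 1.02, -0.26 ± 1.01 and 2.01 ± 0.92 (SE), and the difference between copies was not tested.

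**Figure D3:**
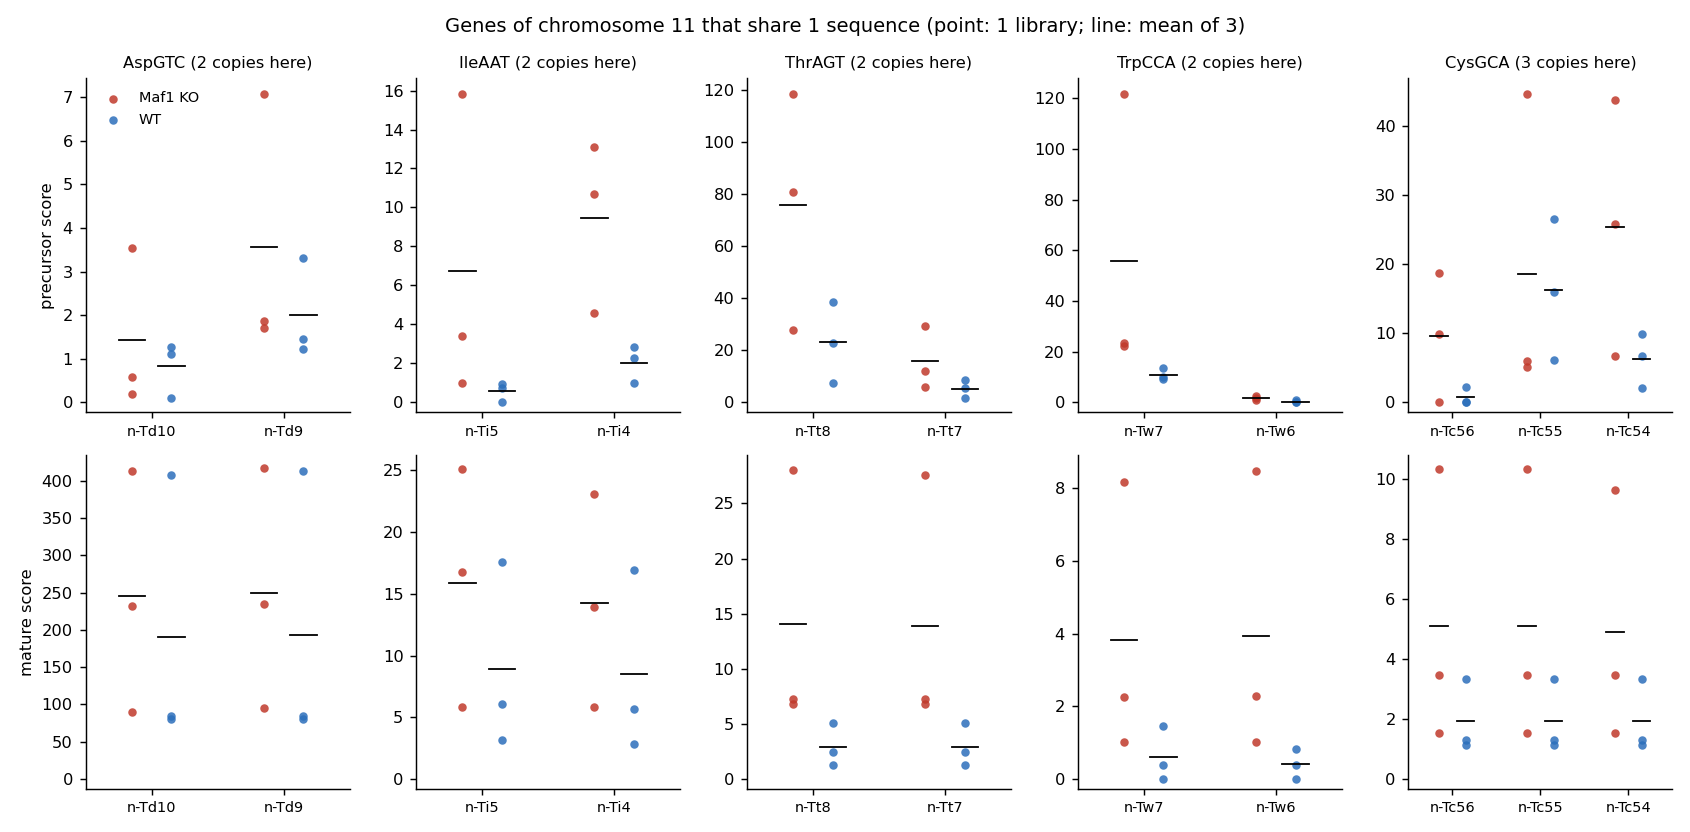
Precursor scores (top row) and mature scores (bottom row) of the chromosome 11 genes that share 1 sequence, with Maf1 KO in red left of WT in blue. Points are single libraries and lines means of 3; mature scores of copies nearly coincide (at most 1.09 times apart), while precursor scores differ by 1.57 to 34.7 times between the highest and lowest copy.

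Among genes with a T run within 60 bases, those whose run lay farther downstream tended to have higher precursor scores. Among the 42 genes with a B box core and a T run within 60 bases, the distance to the run had a Spearman rho of 0.51 with the mean precursor score in KO and of 0.39 in WT, and of 0.11 with the mean mature score. In the 7 genes with 15 or more bases before the run (n-Tg1, n-Ta38, n-Tt8, n-Ts17, n-Tt12, n-Tc56 and n-Tc54), the median of the mean precursor scores was 33.3 in KO and 19.3 in WT. In the 35 genes with fewer bases it was 6.69 in KO and 2.04 in WT. In the 4 genes with no run within 60 bases it was 0.995 in KO and 0 in WT, with n-Tt5 the highest of them. For the 32 intronless loci of other chromosomes with a B box core and no run it was 0 in KO and 0 in WT. The limit of 15 bases was chosen after the values were seen. Among the 287 intronless loci elsewhere rho was 0.13 in KO and 0.01 in WT. By the same limit, the medians elsewhere were 22.2 in KO and 1.86 in WT for 41 loci with 15 or more bases, and 3.98 in KO and 0.657 in WT for 246 loci with fewer. The gap in KO medians was thus seen elsewhere too. Over the 35 genes with a tested change, the distance had a rho of 0.36 with the precursor log2 fold change, and over 191 loci elsewhere of 0.28. A longer trailer also offers more bases that mark a tag as precursor, and the part of this was not tested.

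**Figure D4:**
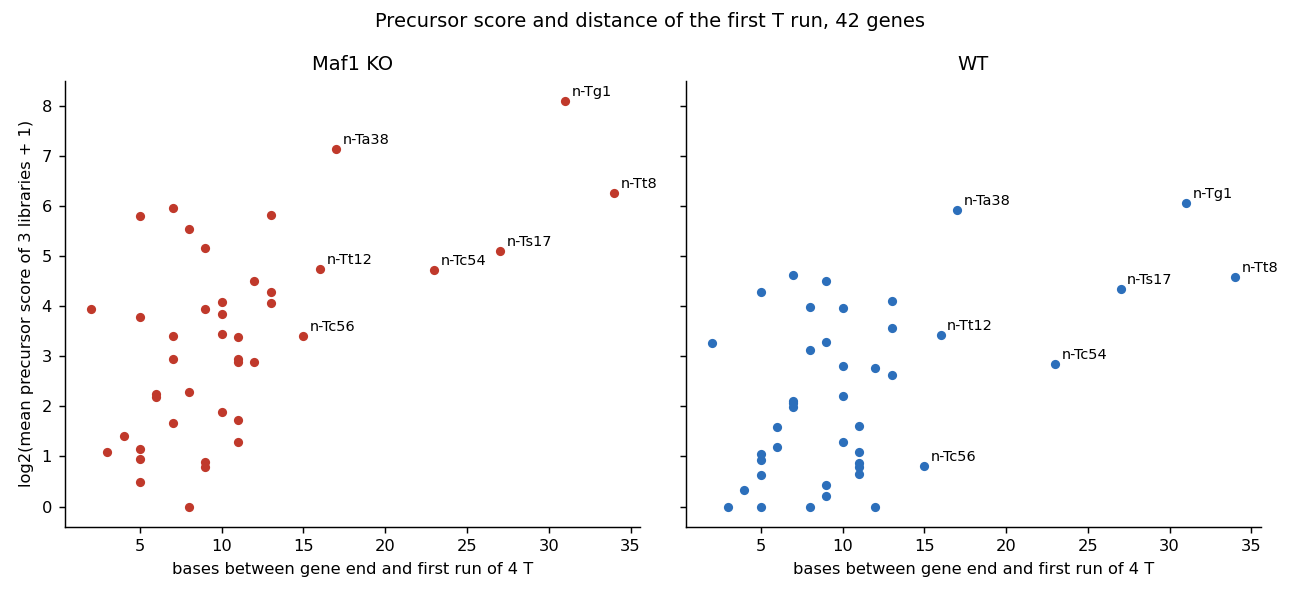
Mean precursor score, as log2(mean score + 1), against the number of bases between the gene end and the first run of 4 T, for 42 genes in Maf1 KO (left, red) and WT (right, blue). Named points are the 7 genes with 15 or more bases, whose median is 33.3 in KO and 19.3 in WT on the score scale.

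Genes around the tRNA genes showed no called change. Of 81 annotated genes within 20 kb of one of the 48, 52 could be tested, and by edgeR's quasi-likelihood test 0 passed, with 0% called over 16101 genes, and 1 had an unadjusted p under 0.05 (1.88% over all genes). DESeq2 also called 0 of them. Their median log2 fold change was 0.03, against 0.01 over all genes. The gene with the smallest p was Gm11205, annotated as a processed transcript, with an exon that contains the threonine gene n-Tt12 on the same strand. It was counted at 3.69, 2.32 and 2.61 CPM in the KO libraries, against 0.783, 0.601 and 0.633 CPM in the WT libraries, without overlap. Its log2 fold change was 2.11 ± 0.45 (SE), with an unadjusted p of 0.00275 and an adjusted p of 1.00. n-Tt12 itself had precursor scores of 12.9, 8.45 and 55.7 in the KO libraries, against 8.11, 7.63 and 13.5 in the WT libraries, and reads of the host and of the tRNA gene cannot be told apart here.

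The next smallest p belonged to 4833417C18Rik and Gm12184, at 0.0742 and 0.0814 unadjusted. 4833417C18Rik, a lincRNA annotated across the position of n-Tq16, was at 0.450, 0.901 and 0.896 CPM in the KO libraries, against 2.35, 1.62 and 1.19 CPM in the WT libraries, without overlap. Gm12184, 1545 bases from n-Tg1, was at 0.720, 30.6 and 2.24 CPM in the KO libraries, against 1.04, 2.52 and 1.58 CPM in the WT libraries, so that KO2 alone set its mean. Cdkn2aipnl, the host of n-Ta1, had a log2 fold change of 0.01 ± 0.23 (SE).

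Genes for the machinery did not pass either. Of 22 genes for subunits of RNA polymerase III and its transcription factors, edgeR called 0, with 0 at an unadjusted p under 0.05, and DESeq2 called 0, with a median log2 fold change of 0.03. Of 16 genes for the processing of tRNA ends and for export, both tools called 0, with 0 at an unadjusted p under 0.05 and a median of 0.14. Maf1 had a log2 fold change of -2.00 ± 0.28 (SE) and an unadjusted p of 0.000225, with an adjusted p of 1.00 by edgeR and of 1.33e-05 by DESeq2. Over all 16101 genes edgeR called 0, with 302 at an unadjusted p under 0.05, and DESeq2 called 14.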

How the data were processed

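The authors sequenced RiboZero-treated total RNA of eWAT with a strand-keeping (dUTP) protocol and, according to the submitters' processing notes, used GSNAP, HTSeq, edgeR and genome build mm9. The deposited score values of tRNA loci were made by the authors from precursor-only and mature tags. The study describes the reads it plots for both classes as uniquely mapped. How tags were divided between the classes and among identical copies is not given in the sources used here. Between 24.0% and 47.8% of positive precursor scores were whole multiples of 1 tag (within 0.006), against 0.710% to 1.57% that rounding alone would give, and the others were fractions, so no count test was run on scores. The gene table of the authors was treated as estimated counts because its columns end in a scaling factor; every gene holds a whole number of uniquely mapped reads. Its 3 last lines (1 empty, read totals and scaling factors) are not genes and were dropped. The authors' own fold change, p-value and call columns were not used.

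For scores, log2(score + 1) entered limma 3.58.1 (trended) wherever the mean score reached 1, and for counts edgeR 4.0.16 (TMM, filterByExpr, quasi-likelihood) was run, in R 4.3.3. Two-sided p-values had Benjamini-Hochberg adjustment over all loci or genes, with a threshold of 0.05. In limma the spread of a locus is drawn towards that of all loci tested. Its p-values thus lean on many loci that share the same libraries and are not separate measurements. Sequences came from mm9 and annotation from GENCODE on the same build, aligned with Biopython 1.88. Tables used Python 3.11.15, pandas 2.3.3, numpy 2.4.6 and scipy 1.17.1, and plots matplotlib 3.10.9. The limma fits of precursor and mature scores without the block, and the edgeR fit, were tried on simulated data. These data held no shift shared by the loci of a library, so they do not bear on that dependence. The fits with the block and of precursor minus mature change were not simulated. The labels give 3 replicates for each genotype, and the study gives n = 3 per group for mice. Same-numbered libraries had residual correlations of 0.27, -0.07 and 0.23 in precursor scores and 0.35, 0.12 and 0.09 in mature scores, not all above 0.1. In gene counts of the same libraries the values were 0.66, 0.36 and 0.34, all above 0.1, which by the rule used pairs the libraries. Libraries of unlike number also correlated in gene counts, at 0.47 (KO3 and WT2) and 0.29 (KO2 and WT3), while unlike pairs with KO1 or WT1 were negative. In mature scores KO3 and WT2 reached 0.42. Same-numbered libraries thus did not stand out as 3 separate pairs. The labels do not say what a number stands for, so results with and without the block are given wherever it changed a call.

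The members, gene lists and rules were chosen with earlier results of these data known. The rule for named genes takes members that pass a test without overlap, the 3 smallest precursor changes, the 3 highest mature scores, the 2 intron-containing loci, Maf1 and the 3 neighbouring genes with the smallest p; other genes named were chosen after their values were seen. Alternatives were other pseudocounts (0.1 and 5), filters, scalings, limma without a trend or with library weights, all tags, a replicate block, DESeq2 1.42.0, other windows and leaving out libraries; the block with a scaling to mature sums and the removal of both libraries numbered 3 were added after seeing the data.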

Additional observations from a re-analysis of the deposited data

How the results depend on the processing

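The number of the 48 genes called in precursor scores, 4, changed with many settings, for reasons that were not tested. It was 2 with a pseudocount of 5, 0 with no filter on low scores, 2 with limma without a trend, 2 with scores scaled to equal mature sums and 0 with all tags in place of precursor tags. With library weights it was 10, of which 9 were higher and 1, n-Tw5, lower. Leaving out single libraries gave 0 to 6, and leaving out both libraries of a number gave 0 each time, where 2 libraries a genotype remain. n-Tl6 passed in 11 of 21 alternatives, n-Tg1 and n-Tt5 in 10 each and n-Tr12 in 6 of 20. Over all loci the calls, 68, ranged from 0 to 134. The median precursor change of the 48 genes stayed positive throughout, between 0.72 and 1.54, and that of all loci between 0.92 and 2.12. The precursor change of n-Ta1 was 0.18 without both libraries numbered 2, and that of n-Tp9 was 0.26 with all tags, both opposite in sign to the reported values and not past the test. Signs also turned, never past the test, for the precursor changes of n-Td9 (in 4 alternatives, down to -0.15), n-Td10 (4, -0.15) and n-Tg25 (5, -0.48) and for the mature changes of n-Tg25 (4, -0.30) and n-Td10 (2, -0.0024), and for precursor minus mature change of n-Td9 (5), n-Td10 (2) and n-Tg25 (6). Leaving out libraries gave medians of 0.40 to 1.53 for mature change and -0.14 to 0.41 for precursor minus mature change.

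With the replicate number as a block, 5 of the genes were called in precursor scores and 20 in mature scores, where 0 passed without it; over all loci 153 mature calls were made, against 0. Calls for precursor minus mature change over all loci, 5, ranged from 0 to 18, and DESeq2 called 14 genes where edgeR called 0. The block together with scaling to mature sums, added after seeing the data, gave 4 precursor and 7 mature calls. Library weights gave 1 mature call. The other alternatives gave 0 mature calls, and every alternative run gave 0 of the 48 genes for precursor minus mature change and 0 neighbouring genes. The block changed no call in neighbouring genes.

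The median standard error of the precursor changes was 0.97 without the block and 0.66 with it. Scores of identical copies are not separate, and low scores rest on a few tags.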
